A study of Mus musculus with 2 samples.

Results

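Bins, 1-kb stretches of the mouse autosomes, were selected where DNA was less methylated in sperm than in tail. A sperm library and a tail library, 1 of each, were prepared from genomic DNA of the same adult male C57BL/6J mouse, an inbred strain, with no treatment given in the labels. A single animal and a single library per tissue mean that there are no replicates, so no difference between the tissues was tested. TEPBAT is bisulfite sequencing in which fragments that start inside an IAP long terminal repeat (LTR) are enriched by PCR with an IAP primer. Bisulfite turns unmethylated cytosine into a base read as T and leaves methylated cytosine, so each read gives a methylated or an unmethylated call at each CpG it covers. The level of a bin is its methylated calls divided by all its calls. Bins with at least 100 calls in both libraries were kept, which gave 10802 measured bins. Members had a sperm level at least 0.2 below the tail level and a tail level above 0.8, which held for 500 of the 10802 bins (4.63%). The mirror rule, tail lower by at least 0.2 and sperm above 0.8, held for 543 bins (5.03%). The members were thus chosen by their sperm and tail levels, which are given as a description.

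IAP elements are endogenous retroviruses of the mouse, with an LTR at each end that carries the promoter and the polyadenylation signal. Recombination between both LTRs of an element removes its body and leaves a solo LTR. CpG methylation holds most IAP copies silent in somatic tissue, and much of the genome's methylation is erased and laid down again in the male germ line before birth. In bulk DNA a level between 0 and 1 can come from differences between cells, alleles or CpG sites, which cannot be told apart in summed calls.

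The libraries held 95744413 calls at 754507 positions in sperm and 55366653 calls at 959191 positions in tail, of which 87.7% and 88.4% were methylated. Measured bins held 97.8% of the autosomal sperm calls and 96.0% of the autosomal tail calls. As a check of the labels, calls within 1 kb of the starts of imprinted genes methylated on the maternal allele were summed. There, 1 of 152 sperm calls (0.658%, exact 95% interval 0.0167 to 3.61%) and 27 of 185 tail calls (14.6%, 9.84 to 20.5%) were methylated, so the check rests on few calls. Several of these genes had no calls in either library. The tail share lay below the even split that a methylated maternal allele alone would give, so the check does not settle the labels. At H19, which is not in that sum, 0 of 4 sperm calls were methylated and tail had no calls. PCR copies cannot be told from separate molecules without molecular identifiers, so all intervals cover counting error only.

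The windows below show what the strongest members look like at the level of bases. All are from GRCm38 (mm10) and read 5′ to 3′. Capitals mark CpG sites with at least 10 calls in both libraries, a sperm level of at most 0.2 and a tail level of at least 0.8. The first pair shows the last 120 bases of an IAPEY LTR and the first 60 bases after it, for the member with the largest difference and for a solo copy near Slc35b4. The next window shows the end of the IAPLTR2a2 solo LTR with the largest difference.
IAPEY 5′ LTR, chr1:147944070-147944249, minus strand: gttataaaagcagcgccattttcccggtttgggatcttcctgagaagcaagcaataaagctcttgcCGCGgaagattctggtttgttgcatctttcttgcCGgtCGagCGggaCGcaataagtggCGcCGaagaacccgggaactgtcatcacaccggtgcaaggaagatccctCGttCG
IAPEY solo LTR, chr6:34192306-34192485, plus strand: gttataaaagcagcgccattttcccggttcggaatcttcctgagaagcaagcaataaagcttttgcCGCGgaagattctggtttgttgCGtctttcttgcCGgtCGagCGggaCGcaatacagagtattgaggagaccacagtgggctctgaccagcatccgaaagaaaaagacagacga
IAPLTR2a2 solo LTR, chr10:113272908-113273207, plus strand: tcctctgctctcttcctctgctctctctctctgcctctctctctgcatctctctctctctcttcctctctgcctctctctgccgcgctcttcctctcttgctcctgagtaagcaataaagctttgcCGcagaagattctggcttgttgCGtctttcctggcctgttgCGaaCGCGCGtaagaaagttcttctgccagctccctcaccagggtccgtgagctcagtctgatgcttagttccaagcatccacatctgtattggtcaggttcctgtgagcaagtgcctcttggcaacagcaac

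For comparison, an IAPEY solo LTR that was methylated in both libraries is given in the same frame, with capitals at CpG sites of at least 0.8 in both. It was chosen after its values were seen, as the IAPEY copy above 0.9 in both libraries with the most calls. Its bin had a level of 0.948 in sperm (90830 calls) and 0.943 in tail (54404 calls). Its last 120 LTR bases matched those of the chromosome 1 copy at 105 of 121 aligned columns (86.8%) and those of the chromosome 6 copy at 107 of 121 (88.4%). The members on chromosomes 1 and 6 matched each other at 116 of 120 columns (96.7%).
IAPEY solo LTR methylated in both, chr8:126606310-126606489, minus strand: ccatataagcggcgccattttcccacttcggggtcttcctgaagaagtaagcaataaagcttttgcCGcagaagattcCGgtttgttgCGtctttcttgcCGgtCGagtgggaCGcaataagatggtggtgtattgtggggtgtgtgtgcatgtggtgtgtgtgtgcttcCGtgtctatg

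The last windows come from members with no recognised LTR, chosen after their values were seen. The one on chromosome 8 matched IAP sequence by blastn. Its first bases read much like the end of the chromosome 10 IAPLTR2a2 LTR above, so it may hold part of an LTR too short for the limits used here. The other 2 lie in introns of Magi2 and Mbd5 and hold spliced coding sequence of other genes, described further on.
Bin near Unc5d, chr8:29287180-29287419, plus strand: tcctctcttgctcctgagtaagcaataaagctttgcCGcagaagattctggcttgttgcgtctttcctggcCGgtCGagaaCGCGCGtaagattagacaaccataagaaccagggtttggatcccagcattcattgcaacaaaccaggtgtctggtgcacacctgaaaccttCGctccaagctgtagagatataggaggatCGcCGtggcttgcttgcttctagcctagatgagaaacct
Magi2 intron, chr5:19505574-19505813, plus strand: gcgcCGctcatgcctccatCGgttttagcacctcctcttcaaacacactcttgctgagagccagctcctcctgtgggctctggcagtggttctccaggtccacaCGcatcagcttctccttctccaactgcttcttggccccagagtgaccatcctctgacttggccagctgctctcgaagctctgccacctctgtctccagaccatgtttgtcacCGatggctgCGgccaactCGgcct
Mbd5 intron, chr2:49309194-49309433, plus strand: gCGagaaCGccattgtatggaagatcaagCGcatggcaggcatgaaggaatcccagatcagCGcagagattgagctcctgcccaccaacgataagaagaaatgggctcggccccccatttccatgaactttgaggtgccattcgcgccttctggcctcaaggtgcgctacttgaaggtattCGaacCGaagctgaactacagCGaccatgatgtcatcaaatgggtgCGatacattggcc

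**Figure D1:**
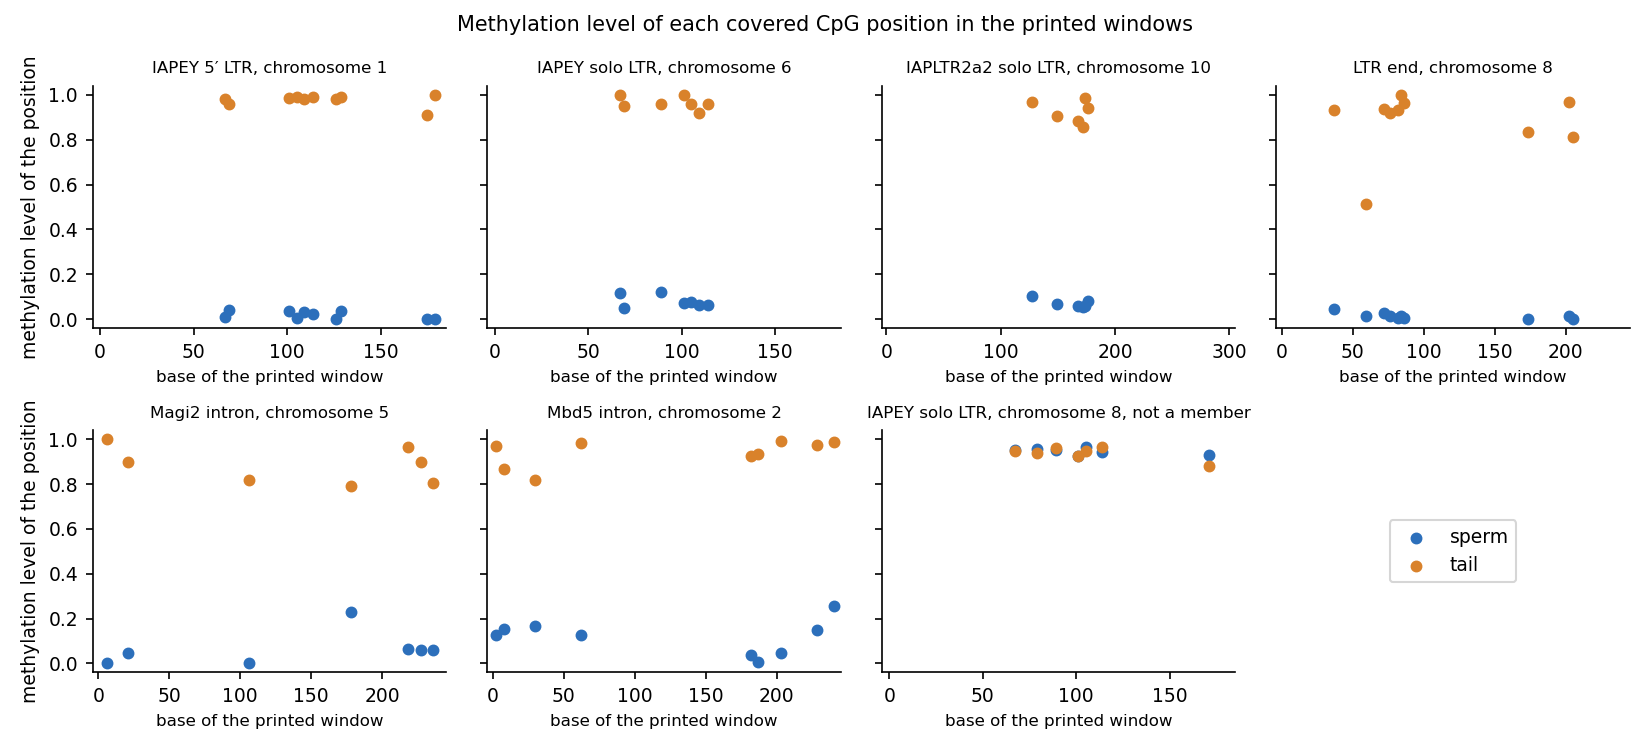
Methylation level (0 to 1) of every CpG position with at least 10 calls in both libraries, against its base in each printed window, with sperm in blue and tail in orange. In the 6 member windows every sperm position lies at or below 0.257, while the IAPEY copy that is not a member has levels from 0.881 to 0.964 in both libraries.

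In the chromosome 1 window, the 10 covered positions had sperm levels of 0 to 0.04 and tail levels of 0.909 to 1. In the chromosome 6 window, the 7 covered positions lay between 0.05 and 0.123 in sperm and between 0.92 and 1 in tail. The 6 positions of the chromosome 10 window lay between 0.0553 and 0.102 in sperm and between 0.858 and 0.988 in tail. In these 3 windows the sperm and tail levels did not overlap at any position, but their bins were chosen for large differences. Only the chromosome 1 window had covered positions after the end of the LTR. In the chromosome 8 window near Unc5d, 9 of 10 positions met the limits for capitals, and the other had 0.0145 in sperm and 0.512 in tail.

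Across the 500 members, the sperm level had a median of 0.603 (quartiles 0.465 and 0.680, range 0 to 0.783). The tail level had a median of 0.915 (range 0.801 to 1). All measured bins together had a sperm median of 0.882 and a tail median of 0.899. The median difference, sperm minus tail, was -0.297 in the members and -0.0133 in all measured bins. Most members were therefore partly methylated in sperm. The sperm level was at most 0.2 in 31 members, at most 0.1 in 18 and at most 0.05 in 9. The difference reached 0.3 in 247 members, 0.5 in 96 and 0.7 in 31. Members had fewer calls than measured bins in general, with a median of 1112 against 2804 in sperm and 780 against 1706 in tail. Just inside the limit lay a bin with an IAPLTR2a2 copy on chromosome 1 (sperm 0.720, tail 0.920) and one with a solo IAPLTR2b near Perp (sperm 0.763, tail 0.964). An IAPLTR1a copy on chromosome 4 (sperm 0.720, tail 0.921) was the next. Just outside lay a bin on chromosome 6 (sperm 0.652, tail 0.851), one near A1cf (sperm 0.736, tail 0.935) and one near Elmod1 (sperm 0.737, tail 0.935).

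**Figure D2:**
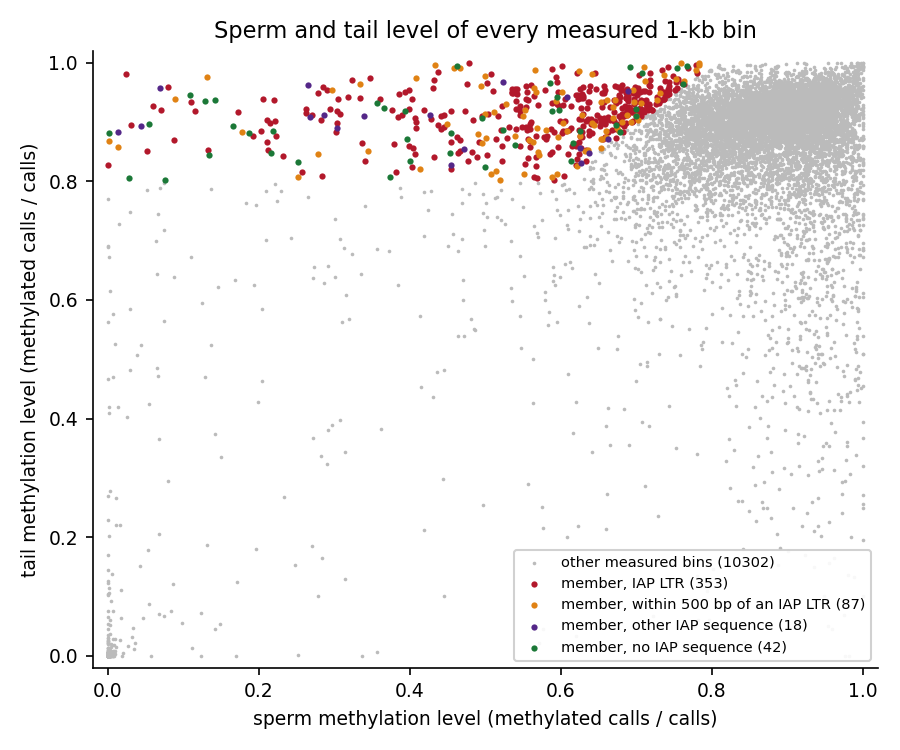
Methylation level in sperm (horizontal axis) and tail (vertical axis) of each of the 10802 measured bins, with the 500 members coloured by what sequence they hold and the other bins in grey. The members fill the band above 0.8 in tail, thin out towards low sperm levels, and only 31 lie at or below 0.2 in sperm.

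LTR copies were found and typed here by sequence match to part of the study's annotation, from chromosomes 1 and 10, so the subfamily or type of single copies may differ from the study's. By sequence, 353 members (70.6%) held an IAP LTR, 87 lay within 500 bp of one, 18 held other IAP sequence and 42 held no IAP match of at least 100 bp. Other IAP sequence can include parts of LTRs too short to count as an LTR here. The share of measured bins that were members was 4.29% of the 8228 bins with an LTR, 7.83% of the 1111 bins next to one, 19.15% of the 94 bins with other IAP sequence and 3.07% of the 1369 bins without IAP sequence. The mirror bins were made up differently, with 348 of 543 lacking IAP sequence and 110 holding an LTR. Some members share a source. There were 476 separate runs of neighbouring bins, 48 members stood next to another member, and the 353 LTR bins held 343 distinct LTRs, 10 of which were split over a pair of members. Members lay on all 19 autosomes, at 2.73% of the measured bins of chromosomes 8 and 11 and up to 6.93% on chromosome 3.

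Apart from IAPEY5, with 1 measured bin, IAPEY had the highest share of members, 75 of its 250 measured bins, or 30.0% (exact 95% interval 24.4 to 36.1), against the 4.63% of all measured bins. The related IAPEY2 had 11 of 75 (14.7%). IAPLTR2a2 gave the most members, 98 of 1324 (7.40%), and IAPLTR2b gave 58 of 1004 (5.78%). The share was lower in IAPLTR2 (36 of 1496, 2.41%), IAPLTR2a (15 of 662, 2.27%), IAPLTR1a (33 of 1842, 1.79%) and IAPLTR1 (16 of 1475, 1.08%). IAPEY members were also lower in sperm, with a median of 0.535 in sperm and 0.938 in tail. IAPLTR2a2 members had medians of 0.574 and 0.909, and IAPLTR1a members 0.682 and 0.925. No test was made of these shares, since the tissue contrast chose the bins. The paper says that its forward primer could pair weakly with IAPEY and IAPEY2, and a smaller part of their copies was measured than of the targeted subfamilies. Member IAPEY copies were covered only at the end of the LTR and after it, so the shares can rest on different parts of the LTR.

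The type of LTR split the subfamilies further. Solo LTRs held 178 members of 2480 bins (7.18%), 5′ LTRs 100 of 2934 (3.41%) and 3′ LTRs 71 of 2740 (2.59%). The mirror bins were also rich in solo LTRs, with 58 solo, 15 5′ and 37 3′ bins. Solo LTRs were 52.7% of the mirror bins with an LTR and 50.4% of the members with one. In IAPEY, 22 of 55 bins with a 5′ LTR (40.0%) and 52 of 155 with a solo LTR (33.5%) were members, but 1 of 39 with a 3′ LTR (2.56%, 0.0649 to 13.5). In IAPLTR2a2 the solo copies held most members, 70 of 521 (13.4%, 10.6 to 16.7), against 9 of 424 5′ LTRs (2.12%) and 18 of 368 3′ LTRs (4.89%). In IAPEY2, 7 of 38 solo bins (18.4%), 2 of 22 bins with a 5′ LTR (9.09%) and 2 of 15 with a 3′ LTR (13.3%) were members. In IAPLTR2, IAPLTR2a, IAPLTR2b and IAPLTR1a the solo share was below those of both 5′ and 3′ LTRs. Members made up 1.14% of solo, 3.27% of 5′ and 3.85% of 3′ bins in IAPLTR2a. In IAPLTR2b these shares were 5.25%, 7.85% and 5.56%. IAPLTR2 had 8 members of 609 solo bins (1.31%) and 18 of 451 bins with a 5′ LTR (3.99%), and IAPLTR1a had none of 111 solo bins, which allows a share of up to 3.27%.

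**Figure D3:**
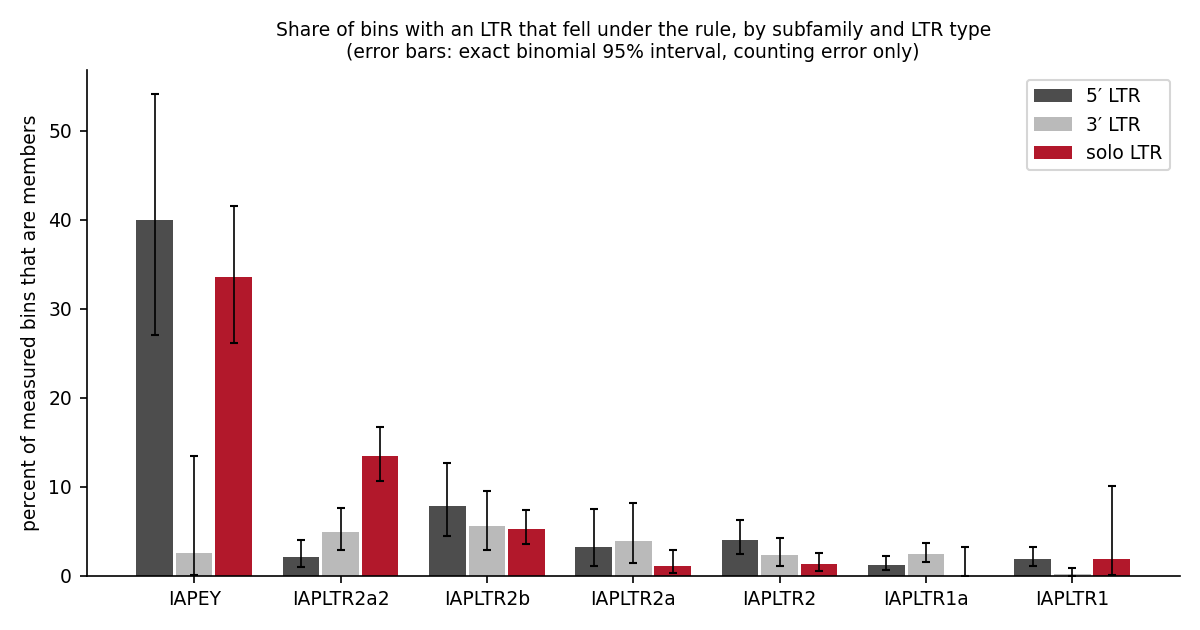
Percent of measured bins that were members (vertical axis), for 5′, 3′ and solo LTRs of 7 subfamilies, with exact binomial 95% intervals that cover counting error only. The 5′ and solo bars of IAPEY reach 40.0% and 33.5%, and the solo bar of IAPLTR2a2 reaches 13.4%, above its 5′ bar of 2.12% and its 3′ bar of 4.89%.

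The spread of sperm levels differed in shape between these groups. To see it, all LTR bins with a tail level above 0.8 were taken, whether members or not. Of the 148 such solo IAPEY bins, 85 (57.4%) stayed above 0.8 in sperm and 7 were at or below 0.2, with quartiles of 0.625 and 0.938. Of the 459 solo IAPLTR2a2 bins, 352 (76.7%) were above 0.8 in sperm, while 4 were at or below 0.2. So the solo copies at low sperm levels were a minority beside copies methylated in both tissues. The 5′ LTRs of IAPLTR2a2 were shifted in another way. Their sperm median was 0.817 against a tail median of 0.883 over 366 bins, with none at or below 0.2, and their lower quartile of 0.769 lay close to that median. This was not particular to IAPLTR2a2. The 5′ medians in sperm and tail were 0.835 and 0.898 in IAPLTR2, and 0.834 and 0.9035 in IAPLTR2a. They were 0.840 and 0.899 in IAPLTR2b, and 0.844 and 0.905 in IAPLTR1a, again with none at or below 0.2. In the 3′ LTRs of IAPLTR1, 617 of 634 (97.3%) were above 0.8 in sperm.

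**Figure D4:**
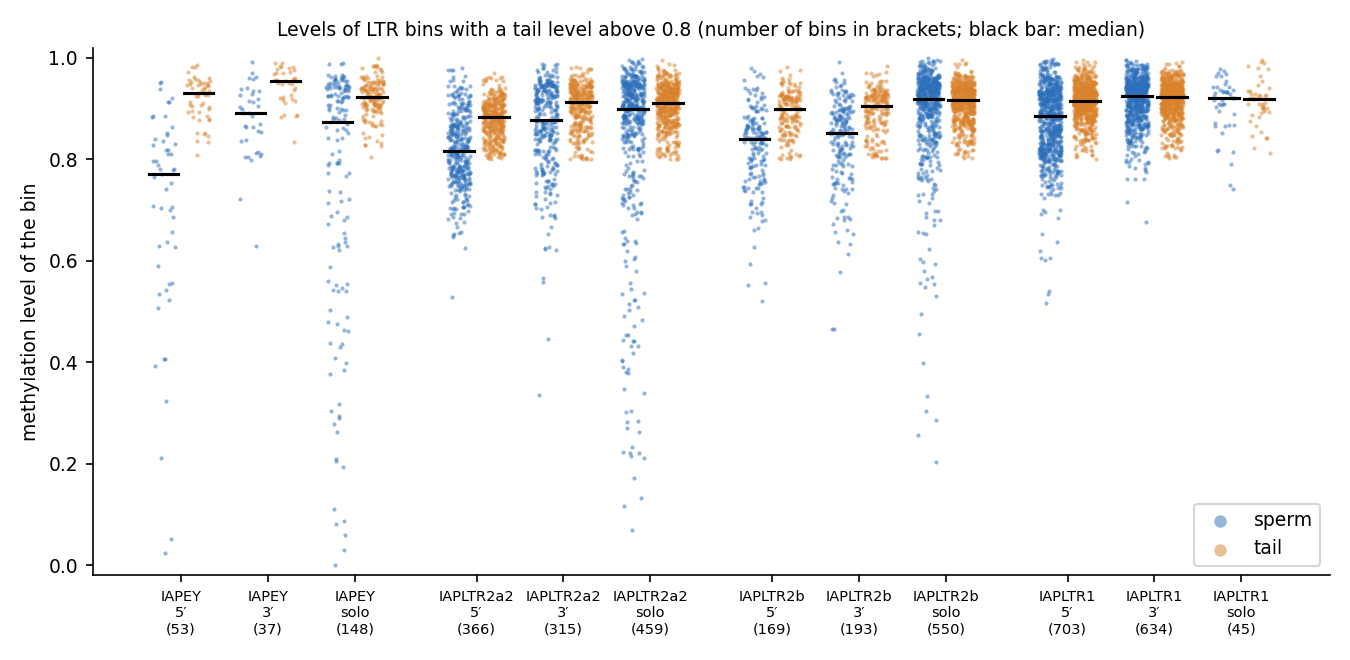
Bin levels (vertical axis) of LTR bins with a tail level above 0.8, by subfamily and LTR type, with sperm in blue to the left of tail in orange, 1 point per bin and black bars at the medians. Solo and 5′ IAPEY and solo IAPLTR2a2 have sperm points down to below 0.1, whereas 3′ IAPLTR1 copies stay mostly above 0.8 in sperm.

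The 12 members with the largest differences included 5 LTR bins, of which 4 were IAPEY. The first, on chromosome 1 with its LTR at chr1:147944130-147944510 and 1449370 bp from the start of Brinp3, had 42 methylated calls of 1778 in sperm (0.0236, 0.0171 to 0.0318) and 2462 of 2509 in tail (0.981, 0.975 to 0.986). All 11 positions with at least 10 calls in both libraries were lower in sperm by 0.2 or more. The bin beside it, which lies after the end of the same LTR, was also a member, at 0.131 in sperm (474 calls) and 0.976 in tail (987 calls). The solo IAPEY on chromosome 6 lay 14931 bp from the start of Slc35b4, a nucleotide sugar transporter. It had a level of 0.0803 in sperm (386 calls) and 0.959 in tail (218 calls). The solo IAPEY on chromosome 4, whose nearest gene start, at 66820 bp, was that of the sperm head gene Cylc2, had 0.0596 in sperm (1377 calls) and 0.927 in tail (682 calls). The solo IAPEY on chromosome 5 had 0.0303 in sperm (198 calls) and 0.895 in tail (854 calls). The solo IAPLTR2a2 on chromosome 10, at chr10:113272622-113273089, had the most calls of the 12, with 0.0703 in sperm (11098 calls) and 0.920 in tail (1648 calls). In all of these LTR bins every shared position was lower in sperm by at least 0.2.

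The other members among these 12 held no LTR that met the limits used here. The bin at chr8:29287000-29287999, 67364 bp from Unc5d, a netrin receptor gene, had 0.0140 in sperm (2937 calls) and 0.884 in tail (2238 calls), and all 10 shared positions were lower. A bin in an intron of Prex2 had 0.0435 in sperm (207 calls) and 0.893 in tail (261 calls) at 8 shared positions. A bin without IAP sequence near Malt1 on chromosome 18 had 1 methylated call of 527 in sperm (0.00190) and 0.882 in tail (659 calls), lower at 4 of 4 shared positions. Few shared positions stood behind 3 others. The bin at chr9:18990000-18990999, near the olfactory receptor gene Olfr834, was covered at 1 position, with 0.00104 in sperm (959 calls) and 0.867 in tail (128 calls). The bin at chr9:114209000-114209999 had 1 shared position, with bin levels of 0.0894 in sperm and 0.938 in tail. Without its top position the difference was -0.391. The bin at chr14:108300000-108300999 had 0.0692 in sperm and 0.957 in tail, but 1 position held 92.6% of its sperm calls and 96.1% of its tail calls. Without that position its difference was 0.34 and the direction turned, with sperm higher.

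The members with the most calls were not the most different. A bin with a 3′ IAPLTR2a2 at chr1:47223461-47223789 had 0.687 in sperm (84649 calls) and 0.921 in tail (29006 calls), with 10 of 10 shared positions lower, but its difference was -0.134 by the mean over covered positions. A 3′ IAPLTR2 in an intron of Rev3l, the catalytic subunit gene of DNA polymerase zeta, had 0.540 in sperm (55262 calls) and 0.949 in tail (28190 calls), lower at 5 of 6. A solo IAPLTR2a 103060 bp from Trim33 had 0.623 in sperm (48607 calls) and 0.945 in tail (27835 calls), lower at 18 of 18. These are middle levels measured at great depth. A bin near Grip1, a scaffold protein gene of glutamate receptors, held IAP sequence but no whole LTR and had 0.340 in sperm (26183 calls) and 0.911 in tail (34511 calls). A solo IAPLTR2b near Ets1, a transcription factor gene, had 0.656 in sperm and 0.933 in tail. A 3′ IAPLTR1a on chromosome 18 had 0.738 in sperm and 0.945 in tail, 3 of its 6 shared positions differed by 0.2, and its difference was -0.195 by the mean over covered positions.

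The members were then followed to single CpG positions. Of the 500, 426 had at least 3 positions with at least 10 calls in both libraries, 72 had 1 or 2 and 2 had none. In 222 of the 426 every shared position was lower in sperm, and in 95 every one was lower by at least 0.2. In 165 of them no more than 50% of the shared positions were lower by 0.2. Of the 3182 shared positions in members, 87.0% were lower in sperm and 64.7% were lower by 0.2. Among the 91832 shared positions of all measured bins the shares were 55.0% and 13.04%. A single position held over 50% of the calls of a library in 110 members (22%, against 15.1% of all measured bins). Both strands could be read in 100 members, with at least 20 calls on each strand in each library. There, 88 were lower in sperm on both strands, 33 were lower by 0.2 on both, and 66 reached 0.2 on 1 strand alone. The median difference was -0.262 on the plus strand and -0.252 on the minus strand. The same counts over all measured bins are not given here. The paper describes a primer in reverse orientation for the 5′ region and one in forward orientation for the 3′ region. The strands can therefore cover different CpG sites at opposite ends of an LTR, so these counts need not compare the same sites.

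In part of the members the lower sperm level was not confined to the LTR. In 155 members with at least 50 calls inside and outside the LTR in both libraries, the median level inside was 0.637 in sperm and 0.925 in tail. Outside, in the sequence next to the LTR in the same bin, it was 0.554 in sperm and 0.865 in tail. Solo, 5′ and 3′ LTRs were pooled, so this sequence can be IAP internal sequence as well as flanking genome. The difference reached 0.2 both inside and outside in 76 of them, inside alone in 51, outside alone in 27 and on neither side in 1. The same split over all 5048 such measured bins gave 0.888 in sperm and 0.918 in tail inside, and 0.820 in sperm and 0.847 in tail outside. The counts by side are not given for all measured bins. The rule used the sum of both sides.

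Each LTR was next cut into 5 equal stretches along its own strand. LTR types were pooled here too, so sequence before or after an LTR can be IAP internal sequence or flanking genome. In stretch 5, the last, 317 member LTRs had a median of 0.644 in sperm and 0.930 in tail. In the 6430 other LTRs it was 0.897 in sperm and 0.926 in tail. In stretch 1 the 190 member LTRs had 0.724 in sperm and 0.902 in tail, and in stretch 2 85 of them had 0.586 in sperm and 0.898 in tail. Up to 100 bp before the LTR the members had 0.514 in sperm and 0.822 in tail, and up to 100 bp after it 0.649 in sperm and 0.9 in tail. At 200 to 300 bp before the LTR, where 36 member LTRs were covered, sperm was at 0.921 and tail at 0.929. Member IAPEY copies were covered only in stretch 5 and after the LTR, with 0.529 in sperm and 0.947 in tail in stretch 5 of 75 copies. Member IAPLTR2a2 copies had 0.427 in sperm and 0.889 in tail in stretch 1 of 56 copies, and 0.621 in sperm and 0.922 in tail in stretch 5 of 88. Other IAPLTR2a2 copies were also lower in stretch 1, at 0.780 in sperm and 0.831 in tail, than in stretch 5, at 0.878 in sperm and 0.912 in tail. Up to 100 bp before the LTR, 10 member copies had 0.253 in sperm and 0.797 in tail.

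**Figure D5:**
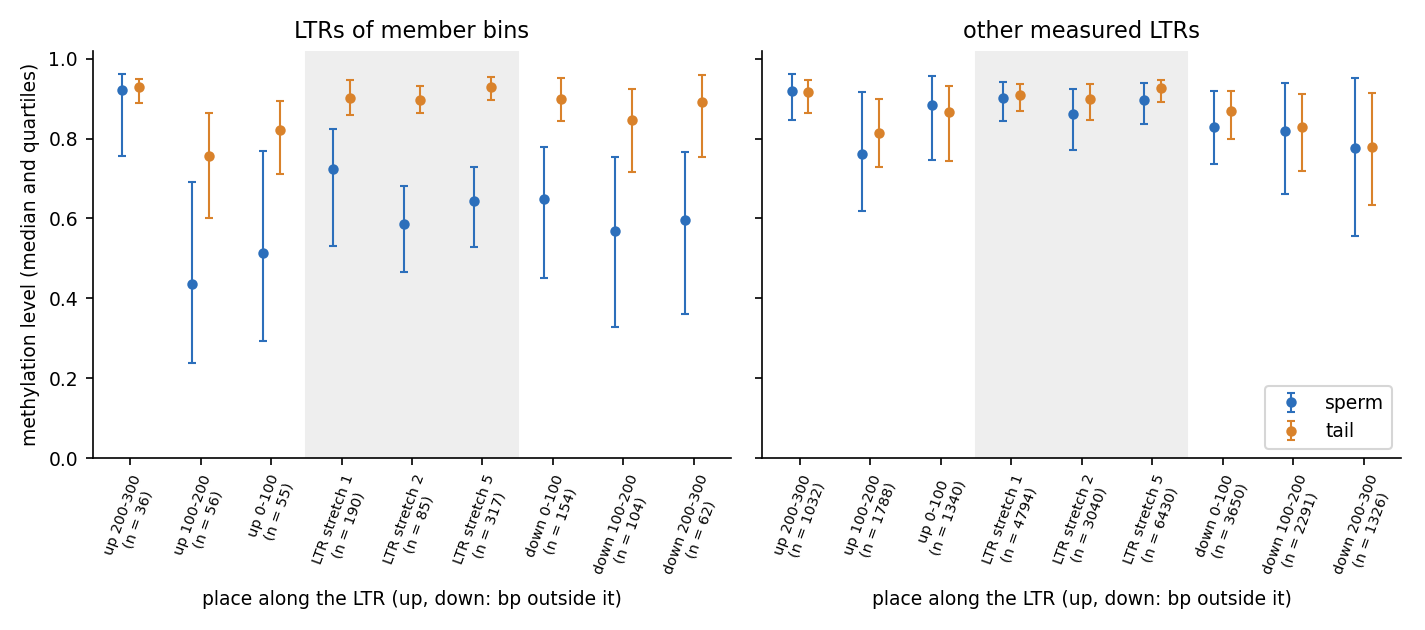
Methylation level (vertical axis; points are medians over LTRs, bars are quartiles) of sperm in blue and tail in orange, by stretch of the LTR (grey band) and by distance in bp before (up) and after (down) it, for LTRs of member bins on the left and other measured LTRs on the right, without stretches 3 and 4, where at most 4 member LTRs were covered. In member LTRs the sperm medians lie between 0.437 and 0.724 except at 200 to 300 bp before the LTR, while sperm and tail medians run close together in the other LTRs.

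The surroundings and the sequence of the members were looked at on 3 scales. The first is the next bin on each side, where bins that met the rule themselves were left out. Of 223 neighbouring bins that were not members and had at least 20 calls in both libraries, 174 (78.0%) were lower in sperm and 29 (13%) were lower by 0.2. Of these 29, 13 also had a tail level above 0.8 and missed the rule only through too few calls. Among the 5570 neighbours of all measured bins the shares were 57.9% and 3.54%. The neighbours of members had medians of 0.801 in sperm and 0.885 in tail. A read that crosses a bin border gives calls on both sides of it, so these bins are not fully separate.

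The second scale is the other end of the same element. Pairs of a 5′ and a 3′ LTR on the same strand 3 to 9 kb apart, with at least 20 calls inside each LTR in both libraries, numbered 1799, and 94 of them had an LTR in a member bin. Both LTRs were in member bins in 7. Where the 5′ LTR was a member (59 elements), the 3′ LTR had medians of 0.833 in sperm and 0.920 in tail. The member 5′ LTRs themselves had 0.724 in sperm and 0.938 in tail. The 3′ LTR was lower in sperm in 52 (88.1%) and lower by 0.2 in 8 (13.6%), against 61.2% and 1.61% of the 1740 elements whose 5′ LTR was not a member. Where the 3′ LTR was a member (42 elements), the 5′ LTR had 0.826 in sperm and 0.922 in tail, and the member 3′ LTRs had 0.677 in sperm and 0.916 in tail. The 5′ LTR was lower in sperm in 37 (88.1%) and lower by 0.2 in 9 (21.4%), against 74.9% and 2.45% of the 1757 elements whose 3′ LTR was not a member. Membership is of the 1-kb bin, while these levels are of calls inside the LTR, so a member end need not differ by 0.2 here. LTRs of an element are close copies of each other, and how far reads were placed at the wrong end was not tested.

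The third scale is the sequence of the LTRs. Member LTRs of all subfamilies together had a median of 4.62 CpG per 100 bp and the other measured LTRs 5.18. Within IAPEY the order was turned, at 6.51 in member LTRs and 6.34 in others, and so it was within IAPLTR2a2, at 3.74 and 3.47. Within IAPLTR2b, at 4.09 and 4.89, and IAPLTR1a, at 5.29 and 5.94, the order was the pooled one. IAPLTR2 was nearly level, at 4.97 in member LTRs and 4.96 in others. For 9 strings of letters, listed with earlier results of these data known, both strands were searched. TGACGTCA, the cyclic AMP response element, was found in 10.5% of member LTRs, 33.2% of other LTRs and 32.1% of all 7066 measured LTRs. AAGATGGCG, a YY1 motif, was in 76.1% of member LTRs, 87.1% of other LTRs and 86.6% of all. Within IAPEY its shares were 73.3% of member LTRs and 69.7% of others, and within IAPLTR2a2 80.2% and 71.2%, so the direction differed from the pooled one, while within IAPLTR2b they were 61.8% and 78.5%. GGCAGTT, a MYB motif, was in 29.2% of member LTRs, 18.8% of other LTRs and 19.3% of all, but within IAPLTR2a2 in 97.8% of member LTRs and 96.2% of others. GGGAGGG was in 1.17% of member LTRs, 1.09% of other LTRs and 1.09% of all, and GGGCGGG in 0.583%, 0.164% and 0.184%. GTTGCCA was in 2.33% of member LTRs, 1.99% of other LTRs and 2.01% of all. GCATGCGC was in none of the 343 member LTRs and 0.0892% of the other LTRs. TCTCTGG was in 12.8% of member LTRs, 22.5% of other LTRs and 21.99% of all. The pooled shares were not adjusted for subfamily and describe letters, not bound sites.

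Within IAPLTR2a2 the string GGCACTC was more frequent in member LTRs, though 47 of the 91 lacked it. This string was listed with earlier results of these data known, so its shares and intervals are a description. It was in 44 of 91 member LTRs (48.4%) and in 123 of 1158 other LTRs (10.6%), and in 2.83% of all measured LTRs of any subfamily. It always lay on the LTR strand and had a median start at base 209 of the LTR. It is shown in capitals here in the chromosome 10 copy, where it starts at base 206.
IAPLTR2a2 solo LTR around GGCACTC, chr10:113272777-113272883, plus strand: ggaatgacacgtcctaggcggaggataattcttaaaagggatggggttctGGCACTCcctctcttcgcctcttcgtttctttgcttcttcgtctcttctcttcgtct
Among solo IAPLTR2a2 LTRs, 42 of 126 with the string were in member bins (33.3%, 25.2 to 42.3), and 21 of 352 without it (5.97%, 3.73 to 8.98). Among 5′ LTRs the counts were 1 of 22 with the string and 8 of 391 without it, and among 3′ LTRs 1 of 19 and 17 of 328. Solo copies with the string had median bin levels of 0.775 in sperm and 0.887 in tail, and those without it 0.908 in sperm and 0.912 in tail. Whether the string or other shared sequence moves with the sperm level was not tested. TCTCTGG went the other way within IAPLTR2a2, in 17.6% of member LTRs and 44.8% of others. Member IAPLTR2a2 LTRs were also longer than the others, with a median of 451 bp against 413 bp.

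The genes around members were few and far. The median distance from a member to the nearest start of a protein-coding gene was 182 kb, against 83.3 kb for all measured bins. A gene start lay within 100 kb of 38.2% of members, 53.8% of all measured bins and 72.4% of the mirror bins. Of the members, 432 (86.4%) were intergenic, 56 lay in introns and 12 overlapped an exon. Among all measured bins 74.3% were intergenic. The nearest gene was a vomeronasal receptor in 3.40% of members and 1.54% of all measured bins, and a zinc finger gene named Zfp in 2.60% and 1.69%. A list of germ cell genes, 47 of its 51 genes on autosomes, had no member within 50 kb of a gene among the 23 measured bins there, which at the share of 4.63% is too few bins to read anything from. A list of 16 epigenetic regulators had 11 measured bins within 50 kb, of which 1 was a member, again too few to read as a difference. It is a solo IAPEY 5238 bp from Morc1, which is needed for transposon silencing in male germ cells. It had 0.438 in sperm (1987 calls) and 0.894 in tail (1419 calls), and all 7 shared positions were lower in sperm by 0.2.

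In 8 members (1.6%) a protein-coding gene start lay within 2 kb, against 2.61% of all measured bins and 3.87% of the mirror bins. A bin of Trim52, a tripartite motif gene, had 0.108 in sperm (120 calls) and 0.945 in tail (109 calls), lower at 5 of 5 shared positions. A solo IAPLTR2a2 1628 bp from the start of Cep162, a centriole protein gene, had 0.545 in sperm (3084 calls) and 0.927 in tail (1081 calls). A 3′ IAPLTR2b near Vmn2r-ps159 had 0.686 in sperm (5008 calls) and 0.915 in tail (6337 calls). The other 5 lay at predicted genes in repeats. They are 2 bins at Gm10800 on chromosome 2, with 0.401 in sperm and 0.834 in tail in one and 0.455 in sperm and 0.881 in tail in the other, and 3 bins near the end of chromosome 9 at Gm10722 and Gm10717. The 3 on chromosome 9 consist of a tandem repeat of 234 bp, with 75.6% to 84.9% identity between copies, as in mouse major satellite DNA next to centromeres. Their levels were 0.625, 0.495 and 0.453 in sperm, and 0.885, 0.907 and 0.847 in tail, in order along the chromosome. The difference of the first was -0.137 by the mean over covered positions. Of 4 measured bins with a tandem repeat of 214 or 234 bp these 3 were members, and the other, on chromosome 2, went the opposite way, with 0.707 in sperm and 0.395 in tail. Many near-identical satellite copies lie outside the assembly, and how many copies feed these bins was not tested.

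Several introns held strong LTR members, named here after their values were seen. A solo IAPLTR2a2 in Rabgap1l had 0.133 in sperm (580 calls) and 0.853 in tail (300 calls). Solo IAPEY copies lay in Pdss2, a coenzyme Q synthesis gene, with 0.290 in sperm and 0.953 in tail, and in Oca2, a melanosome transporter gene, with 0.318 in sperm and 0.943 in tail, each lower at 7 of 7 shared positions. A solo IAPLTR2a2 in Slc4a10, a bicarbonate transporter gene, had 0.386 in sperm (4918 calls) and 0.947 in tail (4014 calls). Among exon bins without IAP sequence, one in Begain with 92 CpG sites had 0.129 in sperm (217 calls over 41 positions) and 0.936 in tail (327 calls over 33 positions), with no shared position. A bin in Gpr19, an orphan receptor gene, had 0.396 in sperm (230 calls) and 0.870 in tail (772 calls).

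The 42 members without IAP sequence had medians of 0.459 in sperm and 0.895 in tail, lower in sperm than the 0.621 of LTR members, whose tail median was 0.920. A primer match within 2 differences lay in or around 10 of the 42 (23.8%), against 24.2% of all measured bins without IAP sequence while it was 71.9% of LTR members and 93.4% of all measured bins with an LTR. After these bins were seen, they were searched for coding sequence joined across exon junctions of a named gene elsewhere, which marks a retrocopy, a processed mRNA copied back into the genome. Such sequence was found in 5 of the 42 (11.9%), 10 of all 1369 measured bins of this kind (0.730%) and none of the 348 mirror bins. The bin in Magi2 held 984 bp of Lmnb2, which encodes lamin B2, over 6 junctions, at 0.0552 in sperm (580 calls) and 0.896 in tail (791 calls). The bin in Mbd5 held 460 bp identical to Ap2m1, a clathrin adaptor subunit gene, over 3 junctions, at 0.142 in sperm (7591 calls) and 0.937 in tail (1618 calls). A bin on chromosome 1 held 675 bp of Gpt2, an alanine aminotransferase gene, at 0.0753 in sperm (385 calls) and 0.803 in tail (314 calls). Every shared position of these 3 was lower in sperm, 8, 10 and 6 of them. The remaining pair held Rpl19, a ribosomal protein gene, at 0.462 in sperm and 0.994 in tail in one bin, and 0.761 in sperm and 0.963 in tail in the other.

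Retrocopies in measured bins that were not members went both ways. Copies of Senp3, with 0.0295 in sperm (747 calls) and 0.749 in tail (581 calls), and of Mgst3, with 0.0746 in sperm (3110 calls) and 0.719 in tail (1692 calls), missed the limit only through their tail level. Copies of Ap2m1 on chromosome 8, Rplp1 and Psma3 were methylated in both, with 0.896, 0.944 and 0.964 in sperm and 0.899, 0.888 and 0.838 in tail. Reads from the parent genes share sequence with these copies, and their part in the levels was not tested.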

How the data were processed

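TEPBAT libraries of sperm and tail DNA were sequenced by the authors, who trimmed the read pairs and aligned these with Bismark, under its default settings, to the mm10 build. Pairs with several matches were discarded, and a Bismark version was not given in the sources used here. Each deposited file gives, for each covered CpG position and strand, the percent methylated and 2 counts, of methylated and of unmethylated calls. The deposited percent was not used. Discarding pairs with several matches leaves out copies that are identical over a fragment, and fragment choice and PCR set the number of calls at a position.

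Counts were summed over 1-kb bins of chromosomes 1 to 19 by the rule of the report. All 1442524 autosomal positions were CpG in GRCm38. LTR copies were found with blastn 2.17.0 within 2 kb of measured bins, using 1004 LTR sequences at positions the study annotated on chromosome 1 and part of chromosome 10, the part of its table used here (hits of at least 250 bp and 80% of the query), and typed by IAP internal sequence within 100 bp. A bin held an LTR if at least 50 bp overlapped. Genes came from GENCODE M21. Intervals are exact binomial (Clopper-Pearson) at 95%. The code of the rule was run on simulated calls with known levels. These were drawn independently at a single level per bin, so they do not cover PCR copies or differences between positions. Python 3.11.15, pandas 2.3.3, numpy 2.4.6, scipy 1.17.1 and pysam were used.

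The members and lists were chosen with earlier results of these data known. Bins named were the 12 largest differences, the 6 with most calls and up to 8 within 2 kb of a gene start. Also named were the 5 largest without a recognised LTR, 3 on each side of the limit and those within 50 kb of a listed gene. Sequences were of at most 2 LTRs per subfamily, outside chromosome 18. Other names were chosen after their values were seen, as were the retrocopy search, the comparison of element ends, the sex chromosome counts and the split by GGCACTC and LTR type. Alternatives were other call minimums, limits, bin sizes, averages over positions, shared positions, parts of the bin and LTR definitions.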

Additional observations from a re-analysis of the deposited data

How the results depend on the processing

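The 500 members became 921 with a minimum of 20 calls in both libraries and 268 with a minimum of 500. A difference of 0.1 gave 1760 bins, 0.3 gave 247 and 0.5 gave 96, and a tail level above 0.9 gave 309. The other alternatives gave 382 to 661. Which bins met the rule moved more than their number. Averaging over covered positions gave 628 bins, of which 297 were among the 500, and positions with at least 10 calls in both libraries gave 435 by summed calls, of which 411 were. Without the position with the most calls in each library there were 544, of which 356 were. The median difference of the members lay between -0.261 and -0.320 under 7 alternatives, against -0.297. With other LTR limits 343 and 363 members held an LTR, against 353. Of the named bins, the one on chromosome 14 at 108300000 turned direction, to 0.114 by the mean over positions and 0.341 without its top position. By the mean over positions 17 other named bins moved beyond their counting intervals, and 5 of them no longer reached 0.2: -0.134 for 47223000 and -0.156 for 109135000 on chromosome 1, -0.0702 for 28419000 on chromosome 4 (-0.181 without its top position), -0.137 for 3000000 on chromosome 9 and -0.195 for 87948000 on chromosome 18. The bin at 114209000 on chromosome 9 had -0.391 without its top position. No paired analysis was possible because each tissue has 1 library. Bins with few covered positions, or with 1 position that dominates, limit what a bin level can show.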

Other observations

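The rule covers the autosomes. Applied to the sex chromosomes of the same files, it held for 38 of 663 measured bins of chromosome X (5.73%) and for 25 of 153 measured bins of chromosome Y (16.3%), against 4.63% of the autosomal bins. The mirror rule held for 14 bins of chromosome X and 1 of chromosome Y. Measured bins of chromosome Y had median levels of 0.788 in sperm and 0.887 in tail, and those of chromosome X 0.847 in sperm and 0.896 in tail. Both chromosomes are present once in a male. Bins of the sex chromosomes were not typed by LTR subfamily. The paper places most IAPEY copies on chromosome Y, and on the autosomes 30.0% of IAPEY bins were members, so the shares are not matched for subfamily. How far similar copies on chromosome Y share reads was not tested.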
